A study of Apera spica-venti with 7 samples.

Results

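The transcripts described here encode the machinery that copies DNA, packs it into nucleosomes and drives cells through division. They are the best-matched transcripts (e-value of at most 0.1) whose homologue description holds a word starting with cyclin, or one of the terms histone H, cell division, DNA polymerase, minichromosome, MCM, replication factor, replication protein A, DNA topoisomerase or Nek2. By this rule 875 of the 251792 annotated transcripts in the 7 single assemblies were members, 0.348% of them, and 223 of 66641 in the combined assembly. They carried 88 descriptions and matched 186 distinct plant proteins. Words alone set membership, so 146 of the 875 were matches by name only. These were mainly FtsH proteases of mitochondria and chloroplasts, the organelle proteins FtsZ and FtsY, CDC48 ATPases and F-box proteins, and they were kept apart below as other matches. A single one of them, in stem, matched through letters of its accession.

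Loose silky-bent (Apera spica-venti) is a grass weed of winter cereals. The 4 seed libraries came from germinated seeds grown on moist filter paper in a climate cabinet, at BBCH 05 (root tip out of the seed), BBCH 07 (coleoptile out of the grain), BBCH 08 (coleoptile growing) and BBCH 09 (shoot emerged). The organs were leaf, root and stem of greenhouse plants at BBCH 34 to 36, when the stem elongates. Germinated seeds were kept in RNAlater and organs were frozen in liquid nitrogen, so material and preservation cannot be told apart. All plants descended from 1 mixture of 6 Danish populations susceptible to herbicides, none was treated, and each library held RNA pooled from at least 3 individuals. Each condition had 1 assembly here, so no value has a replicate, and stage or organ cannot be told apart from library. The study's methods also mention other leaf and root libraries, which were not used here.

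In eukaryotes, the origin recognition complex loads the MCM helicase onto DNA before S phase, replication factor C then places the sliding clamp PCNA, and the polymerases alpha, delta and epsilon copy both strands. Core histones H2A, H2B, H3 and H4 wrap the new DNA and H1 binds between nucleosomes. Cyclin-dependent kinases (CDKs) are switched on by cyclins at set points of the cycle: D cyclins in G1, A cyclins in S phase and B cyclins at mitosis. In germinating cereal grains the root tip commonly emerges by cell elongation, with DNA synthesis and division in the meristems starting around that time, and in grown shoots and roots division is mostly kept to meristems.

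The files list assembled transcripts and give no read counts, so a count here is the number of separate sequences assembled for a protein and not its expression level. A gene in several fragments counts several times, and a gene with few reads may give no transcript. Annotated transcripts numbered 36287, 39930, 38229 and 40902 at BBCH 05, 07, 08 and 09, while the leaf assembly had 28412, the root assembly 38809 and the stem assembly 29223. Shares are therefore percentages of annotated transcripts, with 95% Wilson intervals that cover counting error only. In bulk tissue, fewer dividing cells and less RNA per cell cannot be told apart. Among the single assemblies, the paper reports the fewest filtered paired reads and the fewest complete single-copy plant genes for leaf. Root had the most paired reads. Whether this shaped the low leaf and high root counts was not tested.

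Labels and markers were compared first. Photosynthesis descriptions (chlorophyll a-b binding, photosystem I and small Rubisco subunit) took 0.0732% to 0.0851% of transcripts in the seed stages, against 0.176% in leaf, 0.0902% in root and 0.0924% in stem. Seed storage and embryo descriptions took 0.0587% to 0.102% in the seed stages, against 0.0422% in leaf, 0.0541% in root and 0.0205% in stem. Root uptake descriptions did not set root apart, with 18 transcripts (0.0496%) at BBCH 05, 12 to 17 in the other seed stages, 20 (0.0515%) in root, 9 in leaf and 8 in stem. Secondary wall descriptions ran from 0.110% to 0.144% in the seed stages, against 0.194% in leaf, 0.173% in root and 0.133% in stem. BBCH 09 and root held more homologues in green algae (1.30% and 1.08% of annotated transcripts) than the other 5 assemblies (0.141% to 0.339%). At BBCH 07 the median annotated peptide had 175 amino acids, against 183 to 200 in the other seed stages and 194 to 232 in the organs, and its part in the results below was not tested.

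As a whole the module took nearly the same share of every seed stage, and the organs straddled the seeds. The members numbered 112, 133, 136 and 142 at BBCH 05, 07, 08 and 09, against 86 in leaf, 156 in root and 110 in stem. In shares this was 0.309% (0.257 to 0.371), 0.333% (0.281 to 0.395), 0.356% (0.301 to 0.421) and 0.347% (0.295 to 0.409) in the seed stages. Leaf had 0.303% (0.245 to 0.374), root 0.402% (0.344 to 0.470) and stem 0.376% (0.312 to 0.453). Leaf was lowest and root highest, the seeds lay between them, and every interval overlapped every other.

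The mean share was 0.336% ± 0.0206 over the 4 seed stages and 0.360% ± 0.0516 over the 3 organs (SD between conditions, not replicates), a seed minus organ difference of -0.0242 percentage points. This difference was smaller than the spread among the organs. With peptides of at least 200 amino acids alone it turned to 0.0253, and without root it was -0.00339. BBCH 07 stood at 0.988 of the mean of the other seed stages (interval 0.811 to 1.20) and ranked 5 of the 7 assemblies in share. Without the other matches that ratio was 1.03 (0.831 to 1.28).

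Summed peptide length weighs each transcript by the length of its peptide, and it still grows where pieces of 1 protein overlap. The 8 peptides of DNA topoisomerase 6 subunit A at BBCH 09 summed to 1646 residues on 1 homologue whose longest peptide in any single assembly had 459, in root. Members held 35738, 35548, 36380 and 40090 residues at BBCH 05, 07, 08 and 09, against 20916 in leaf, 41997 in root and 33119 in stem. As a share of all annotated residues the seed stages lay within 0.356% to 0.374%, and root (0.382%) and stem (0.365%) lay close to them. Leaf stood apart at 0.274%, and the seed mean of 0.367% was above the organ mean of 0.340%, the opposite of the order in transcripts.

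**Figure D1:**
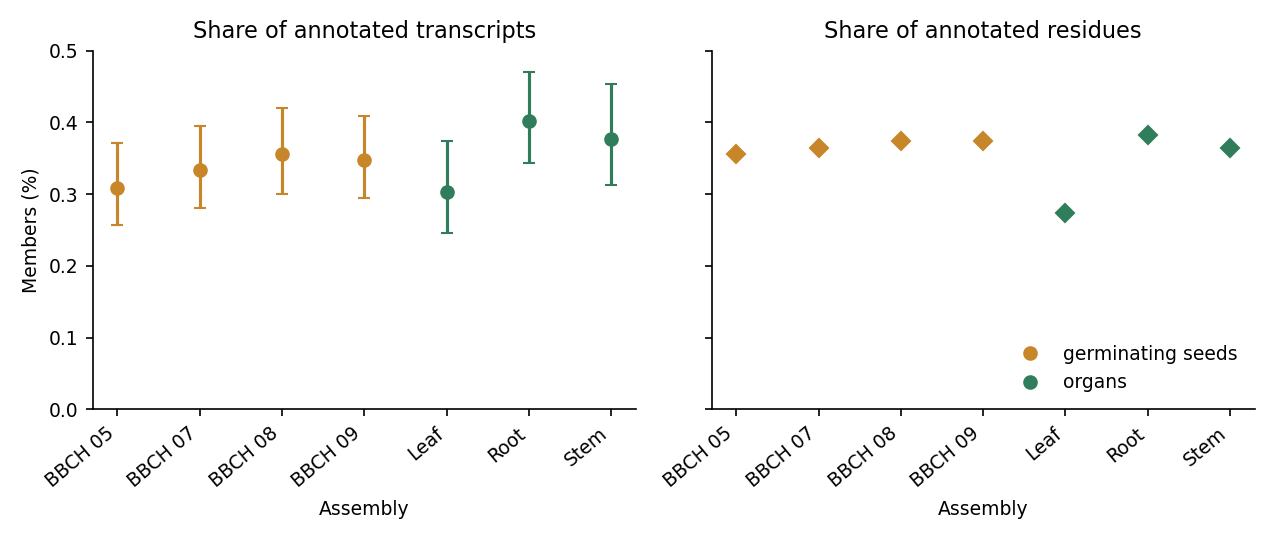
Share of all members in each assembly, as percent of annotated transcripts (left, bars are 95% Wilson intervals) and as percent of annotated peptide residues (right, no interval). Each point is 1 library. By transcripts the values run from 0.303% in leaf to 0.402% in root with overlapping intervals, and by residues leaf is at 0.274% while the other 6 assemblies lie between 0.356% and 0.382%.

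Histones were the largest class over the 7 assemblies together, and root had the most of them. Their transcripts numbered 23, 24, 29 and 31 at BBCH 05, 07, 08 and 09, against 22 in leaf, 57 in root and 22 in stem. The share was 0.0601% to 0.0759% in the seed stages, against 0.147% (0.113 to 0.190) in root, 0.0774% in leaf and 0.0753% in stem. The root interval cleared the upper bounds of the 4 seed stages (0.0894% to 0.109%) and overlapped those of leaf (0.117%) and stem (0.114%). Only 2 of the 57 matched green algae, and without them the share in root was 0.142%. Root transcripts also matched the most histone proteins, 35, against 13 to 22 in the other 6 assemblies, and 15 of those 35 were matched in no other assembly.

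Histone H2A, which carries the acidic patch of the nucleosome, gave most of that excess. It had 10, 13, 17 and 16 transcripts at BBCH 05, 07, 08 and 09, against 9 in leaf, 31 in root and 13 in stem. In the seed stages the 10 to 17 transcripts fell on 7 to 11 distinct proteins, against 19 in root. The peptides were 100 to 140 amino acids long at BBCH 07, against 100 to 193 in root. One H2A homologue of Oryza punctata was matched in all 7 assemblies, by 6 transcripts at BBCH 07, 3 or 4 in the other seed stages, 5 in stem and 3 each in leaf and root.

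H4, the most conserved core histone, was named on no transcript at BBCH 05 or BBCH 07, and on 3 each at BBCH 08 and BBCH 09, against 2 in leaf, 9 in root and 1 in stem. A count of 0 allows a share of up to 0.00827% at BBCH 05 and 0.00751% at BBCH 07, taken as 3 transcripts of the total, or 0.0106% and 0.00962% by the Wilson interval. The 0.00785% at BBCH 08 was close to the first limits and inside the Wilson ones. The H4 peptides had 100 to 139 amino acids, and the shortest peptide listed anywhere had 99, so a slightly shorter H4 would not have been listed. An H4 under another name would not be counted either. An unspecified core histone was described on 2 transcripts at BBCH 05 and 1 at BBCH 07. The nucleosome GO term was on 16 transcripts with no informative name at BBCH 05 and 25 at BBCH 07, against 13 to 25 elsewhere. Whether any of these is H4 was not tested. H3 gave 1, 0, 2 and 2 transcripts in the seed stages, against 2 in leaf, 3 in root and 0 in stem.

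H2B, the partner of H2A, was spread more evenly, with 9, 6, 5 and 6 transcripts at BBCH 05, 07, 08 and 09, against 6 in leaf, 10 in root and 6 in stem. Centromeric H3, which marks the site of the kinetochore, was found at BBCH 07 (2), BBCH 08 (1), BBCH 09 (1), root (2) and stem (1), and had no transcript at BBCH 05 or in leaf. The linker histone H1 had 1 transcript in each assembly except BBCH 07, which had 2. Descriptions of an unspecified core histone gave 0 to 2 transcripts per assembly.

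**Figure D2:**
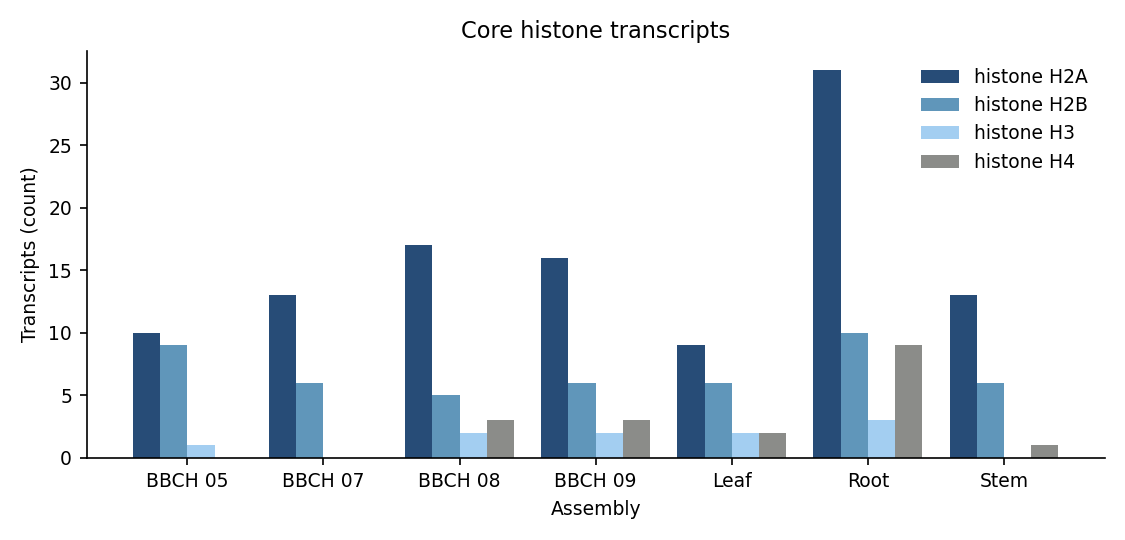
Number of transcripts described as each core histone in the 7 assemblies, 1 library each, as bars from 0 (counts of assembled sequences, not expression). H2A reaches 31 and H4 reaches 9 in root, and H4 is 0 at BBCH 05 and BBCH 07.

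The replication enzymes took their lowest share at BBCH 05. Polymerases, MCM, replication factor C and replication protein A together had 15, 31, 25 and 28 transcripts at BBCH 05, 07, 08 and 09, against 25 in leaf, 28 in root and 24 in stem. The share was 0.0413% (0.0251 to 0.0682) at BBCH 05 and 0.0654% to 0.0776% in the later seed stages, with 0.0880% in leaf, 0.0721% in root and 0.0821% in stem. All of these intervals overlapped. In residues the class differed less among seeds, with 9698 at BBCH 05 and 11075 to 11748 in the later stages, and leaf was lowest at 6678, against 12146 in root and 10786 in stem. Residue sums here and below are not scaled to assembly size. All annotated residues numbered 7632331 in leaf, against 9081899 to 10983002 in the other single assemblies.

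Polymerases described with no letter or number were the largest group of these enzymes. They had 5, 10, 10 and 9 transcripts at BBCH 05, 07, 08 and 09, against 11 in leaf, 12 in root and 11 in stem. Every seed share lay below every organ share, and the ratio of mean shares was 0.62. The exact two-sided permutation test over the 35 divisions of 7 assemblies gave p = 0.0286, the smallest value the design allows, and 0.387 after Benjamini-Hochberg adjustment over the 1435 descriptions tested. The summed length went another way, with 6634, 6487, 6373 and 6819 residues in the seed stages, against 2658 in leaf, 6711 in root and 6390 in stem.

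Thus the 5 polymerase transcripts at BBCH 05 were long and the 11 in leaf were short. Counted by Trinity gene or by distinct protein, the seed and organ shares of this description overlapped. Subunits of the replicative polymerases alpha, delta and epsilon had 2, 5, 4 and 5 transcripts in the seed stages, against 5 in leaf, 6 in root and 2 in stem. The polymerase III gamma/tau description, a clamp-loader subunit in bacteria, had 2, 2, 2 and 4, against 0 in leaf, 2 in root and 4 in stem.

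DNA polymerase I, a bacterial name that in plants goes with the polymerases of chloroplasts and mitochondria, had its most transcripts and its most summed residues at BBCH 07. It had 0, 9, 3 and 3 transcripts at BBCH 05, 07, 08 and 09, against 1 in leaf, 2 in root and 1 in stem. At BBCH 07, 8 of the 9 matched 1 protein of Aegilops tauschii, with peptides of 99, 109, 120, 132, 140, 158, 219 and 316 amino acids, 1293 in all. All 9 summed to 1735 residues, against 0, 907 and 942 at BBCH 05, 08 and 09, while leaf had 1100, root 1323 and stem 1100. BBCH 08 had 3 peptides on the Aegilops protein (907 residues) and BBCH 09 had 3 (942). Leaf, root and stem each held a single peptide of 1100 amino acids on it. BBCH 07 therefore had the most sequences of this protein in the 7 assemblies and, at 316 amino acids, the shortest longest peptide among the 6 that held it.

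Nek2, a kinase that acts at the centrosome in animals, showed the same arrangement on 1 protein of Triticum urartu. It had 1, 6, 1 and 2 transcripts at BBCH 05, 07, 08 and 09, against 0 in leaf, 2 in root and 1 in stem. The 6 peptides at BBCH 07 had 100, 107, 109, 128, 130 and 133 amino acids, 707 residues in all. BBCH 05 had 1 peptide of 511 and BBCH 08 had 1 of 568, while BBCH 09 had 135 and 442, root 284 and 430, and stem 477. Whether the pieces at BBCH 07 belong to 1 transcript was not tested, since no sequences were used here.

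**Figure D3:**
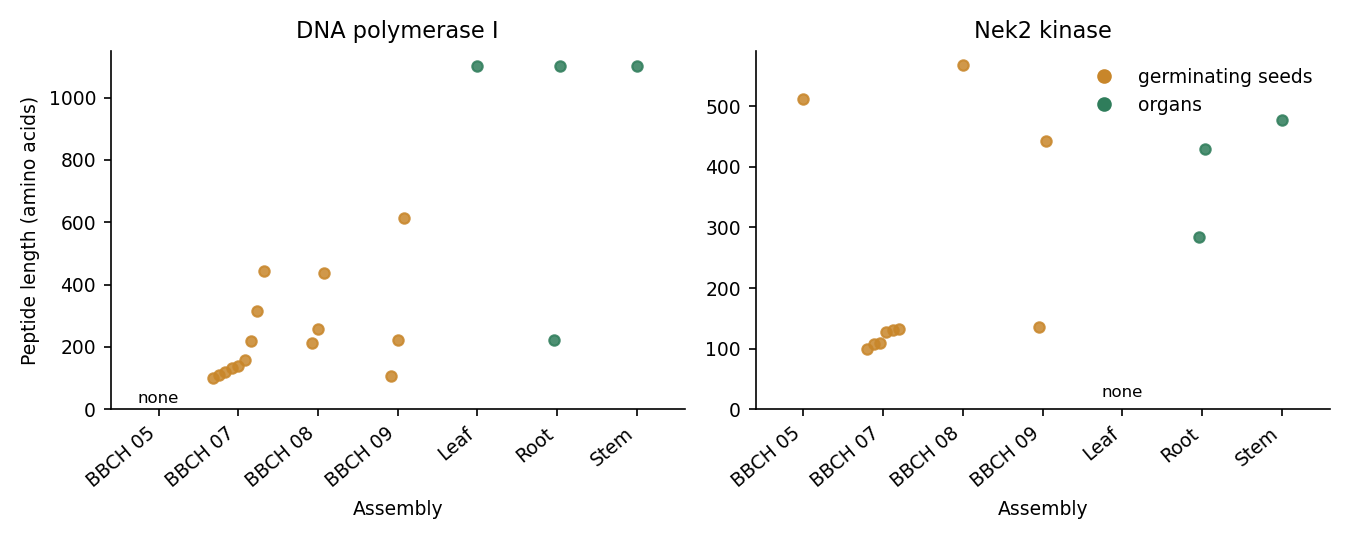
Length of every peptide matched to DNA polymerase I (left) and Nek2 (right) in the 7 assemblies, in amino acids; each point is 1 assembled transcript, and assemblies with no transcript are marked none. BBCH 07 has 9 and 6 peptides, where leaf, root and stem have 1 polymerase I peptide of 1100 amino acids each and BBCH 05 has 1 Nek2 peptide of 511.

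Members repeated a protein most often at BBCH 07. Each matched protein had 1.64 transcripts at BBCH 07, against 1.44, 1.51 and 1.49 at BBCH 05, 08 and 09 and 1.39 to 1.46 in the organs. All annotated transcripts gave 1.41 at BBCH 07 and 1.34 to 1.38 in the other seed stages. Proteins with 3 or more transcripts took 33.8% of members at BBCH 07, against 22.3% to 26.5% in the other seed stages and 17.4% to 25.6% in the organs. Counted as distinct proteins the members were 81 at BBCH 07, against 78, 90 and 95 at BBCH 05, 08 and 09.

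Of the 24 member descriptions with at least 10 transcripts, 4 had their highest share at BBCH 07 (13.6% of all 1435 descriptions did). They were DNA polymerase I, Nek2, cyclin4 and cyclin-F2-1. Cyclin4 had 2, 4, 2 and 2 transcripts in the seed stages, against 2 in leaf, 1 in root and 1 in stem, all on 1 maize protein. Counted as distinct proteins, 12 descriptions reached a total of 10 and none of them was highest at BBCH 07 (10.1% of all descriptions counted this way were).

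Replication factor C, the loader of PCNA, had 4, 3, 3 and 4 transcripts in the seed stages, against 7 in leaf, 3 in root and 4 in stem. Its large subunit 1 gave 0, 0, 0 and 2 in the seed stages, against 4 in leaf, 1 in root and 2 in stem. The small subunits 3 and 5 were found in all 7 assemblies. The helicase subunits named MCM had 2, 0, 1 and 2, against 1 in leaf, 2 in root and 2 in stem. MCM4 was the only one of the hexamer's subunits that the descriptions named, with 1 transcript at BBCH 05, BBCH 08 and BBCH 09 and 2 in root. Replication protein A, which covers single strands, matched the rule once, at BBCH 07 with a weak e-value of 0.08. Most of its subunits are named in the files without the word protein, so the rule did not reach them, and they are given with the other genes of the pathway.

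DNA topoisomerases, which relieve or untangle coiled DNA, were least frequent in leaf. They had 20, 18, 22 and 24 transcripts at BBCH 05, 07, 08 and 09, against 7 in leaf, 17 in root and 18 in stem. The share was 0.0451% to 0.0587% in the seed stages, against 0.0246% (0.0119 to 0.0509) in leaf, 0.0438% in root and 0.0616% in stem, with overlapping intervals. In residues leaf held 2038, against 6719 to 8108 in the other 6 assemblies.

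Topoisomerase 6 is in plants mainly a factor of endoreduplication. Its subunit A had 6, 7, 5 and 8 transcripts in the seed stages, against 1 in leaf, 4 in root and 5 in stem. Subunit B had 3, 1, 4 and 4, against 2 in each organ. Topoisomerase 2, which separates sister chromatids, had 6, 4, 4 and 5 transcripts in the seed stages, against 1 in leaf, 5 in root and 4 in stem. Its longest peptide had 1491 amino acids at BBCH 08, against 1280 in root and 224 in leaf.

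Cyclins had 15, 17, 17 and 16 transcripts at BBCH 05, 07, 08 and 09, against 6 in leaf, 14 in root and 13 in stem. Those of types A and B, which act in S phase and mitosis, had 5, 6, 6 and 9 transcripts in the seed stages, against 1 in leaf, 7 in root and 6 in stem. The 1 in leaf was cyclin-B2-2, a B cyclin with 3, 4, 2 and 5 transcripts in the seed stages, against 1 in leaf, 2 in root and 3 in stem. Its 4 peptides at BBCH 07 had 122 to 169 amino acids, whereas the single one in leaf had 342. Cyclins A3-1 and B2-1 were found in 6 assemblies, in all but leaf.

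D cyclins, which answer to hormones and sugar in G1, had 4, 2, 5 and 2 transcripts in the seed stages, against 1 in leaf, 3 in root and 3 in stem. Among them cyclin-D5-2 had 2, 1, 4 and 1, against 0 in leaf, 2 in root and 2 in stem. Cyclin-T1-4, a partner of kinases of transcription, had exactly 1 transcript in each of the 7 assemblies. Cyclin-F2-1 had 3, 4, 3 and 2 transcripts in the seed stages, against 1 in leaf, 2 in root and 2 in stem.

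The CDKs had 11, 10, 9 and 13 transcripts in the seed stages, against 5 in leaf, 15 in root and 9 in stem. CDKs of type B, made in plants around G2 and mitosis, were found in every seed stage, in root and in stem, and not in leaf. CDKF-4, of a CDK type found in plants, was the second description with all seed shares below all organ shares. It had 1, 1, 1 and 2 transcripts, against 2 in leaf, 3 in root and 2 in stem, all on 1 protein. By Trinity gene it had 1, 1, 1 and 2 in the seed stages and 1 in each organ. Its p of 0.0286 in the exact permutation test (adjusted 0.387) thus rests on single transcripts. CDKF-2 had 5, 1, 4 and 5, against 0 in leaf, 3 in root and 3 in stem. The small regulatory subunit of CDKs had 1 transcript in each assembly.

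The CDC proteins, a mixed class, had 4, 7, 7 and 5 transcripts in the seed stages, against 6 in leaf, 3 in root and 4 in stem. CDC5, a splicing factor in spite of its name, had 1 transcript in every assembly, of 1006 amino acids in each organ and 657 to 996 in the seed stages. Subunits and an activator of the anaphase-promoting complex named by CDC number (16, 20, 23 and 27) fell to BBCH 07, BBCH 08, leaf and root. The other matches held 23, 20, 26 and 23 transcripts in the seed stages, against 15 in leaf, 20 in root and 19 in stem. FtsH proteases made up 11 in each seed stage, against 4 in leaf, 6 in root and 10 in stem. A SET7/9 type histone H3 methyltransferase was found in root alone, with 4 transcripts that all matched green algae.

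**Figure D4:**
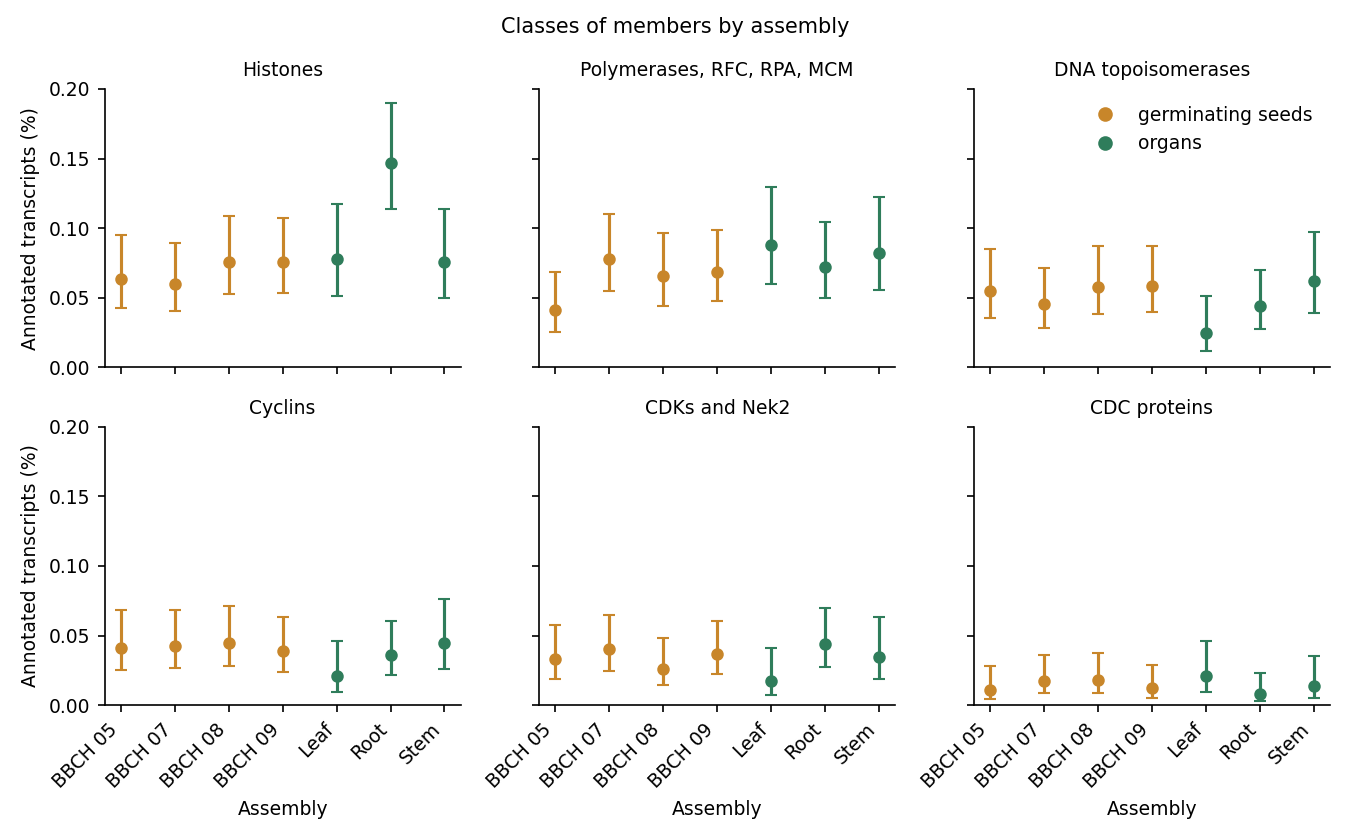
Share of annotated transcripts taken by 6 classes of members in each assembly, with 95% Wilson intervals on 1 scale (1 library per point). Histones in root reach 0.147% against at most 0.0774% elsewhere, and topoisomerases and cyclins have their lowest points in leaf, at 0.0246% and 0.0211%.

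No member description lay higher in every seed stage than in every organ (0 of 24, where 7.25% of all 1435 did), and 2 lay lower in every seed stage (5.71% of all did). These 2, the unnamed polymerase and CDKF-4, were also the only members with an unadjusted p under 0.05 in the exact permutation test, which 106 of the 1435 descriptions passed. Without stem, 8 of 23 member descriptions did not overlap (20.9% of all did not), and without root 1 of 19 did not (27.3% of all). The count was 5 of 22 without BBCH 05 (18.9% of all), 4 of 21 without BBCH 07 (18.5%) and 4 of 21 without leaf (21.2%). Leaf had the lowest share for 10 of the 24 (14.4% of all did), a count made after the values were seen. Those 10 were topoisomerase, topoisomerase 2, topoisomerase 6 subunit A, cyclins B2-2, D5-2 and F2-1, CDKF-2, Nek2, the gamma/tau subunit and FtsH. Root had the highest share for 5 (13.4% of all did), the 4 core histones and CDKF-4.

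Other genes of the same processes lie outside the words of the rule. In 11 groups of them 48 descriptions were found, and 9 had at least 10 transcripts. Of these 9, 3 were higher in every seed stage than in every organ (7.25% of all 1435 descriptions were). None was lower (5.71% of all were). The 3 were ribonucleoside-diphosphate reductase, which makes the deoxynucleotides, the CDC20 activator of the anaphase-promoting complex, and the 32 kDa subunit of replication protein A. Each had p = 0.0571 in the exact permutation test and 0.434 after adjustment.

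Ribonucleoside-diphosphate reductase had 10, 9, 7 and 11 transcripts at BBCH 05, 07, 08 and 09, against 4 in each organ, on 4 or 5 proteins in the seeds and 2 in each organ. Its peptides summed to 2067, 1579, 1749 and 2154 residues in the seed stages, against 863 in leaf, 1514 in root and 1686 in stem. In residues BBCH 07 thus lay below stem. CDC20 had 5, 8, 3 and 6, against 1 in leaf, 1 in root and 2 in stem. By distinct protein CDC20 had 1 in each seed stage, in leaf and in root, and 2 in stem. Its median peptide had 106 amino acids at BBCH 07, against 471 in root. The 32 kDa subunit had 3, 3, 3 and 2, against 0 in leaf, 1 in root and 1 in stem, all on 1 protein. PCNA itself had 1 transcript in each seed stage and in leaf, and 2 in root and stem.

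By group, condensin and cohesin had 9, 11, 15 and 14 transcripts in the seed stages, against 5 in leaf, 10 in root and 6 in stem. Origin recognition and licensing factors had 2 in each seed stage, against 0 in leaf, 3 in root and 2 in stem. Primase, ligase and flap endonuclease had 7, 11, 14 and 8, against 7 in leaf, 8 in root and 9 in stem. E2F and retinoblastoma-related factors, which gate entry to S phase, had 5, 2, 2 and 2, against 2 in leaf, 6 in root and 4 in stem. The nucleotide supply enzymes had 12, 13, 10 and 16, against 7 in leaf, 8 in root and 6 in stem. The anaphase-promoting complex had 9, 11, 4 and 11, against 4 in leaf, 2 in root and 3 in stem.

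The smaller groups gave few transcripts in any assembly. Kinetochore and checkpoint proteins had 2, 1, 1 and 2 in the seed stages, against 2 in leaf, 2 in root and 1 in stem. Aurora and Wee1 kinases had 1, 2, 1 and 2, against 0 in leaf, 3 in root and 0 in stem. Chromatin assembly factors had 2, 3, 3 and 4, against 2 in leaf, 1 in root and 1 in stem.

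GO terms reach transcripts that the words did not. In the single assemblies, 76.4% to 80.9% of transcripts with any of 12 terms for these processes were not members. Most of those outside had a homologue with no informative name (192 of 279 at BBCH 05, 202 of 292 in root). The MCM complex term was on 9, 14, 16 and 15 transcripts at BBCH 05, 07, 08 and 09, against 1 in leaf, 15 in root and 8 in stem. Only 1 of these transcripts, at BBCH 08, was a member. The leaf share of 0.00352% (0.000621 to 0.0199) lay below the intervals of BBCH 07, 08, 09 and root and overlapped those of BBCH 05 and stem.

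DNA replication initiation was on 36, 50, 48 and 46 transcripts in the seed stages, against 14 in leaf, 51 in root and 38 in stem. The seed stages had 0.0992% to 0.126%, against 0.0493% (0.0294 to 0.0827) in leaf, 0.131% in root and 0.130% in stem, where the leaf interval overlapped that of BBCH 05 alone. DNA replication as a whole was less uneven, on 86, 101, 100 and 93 transcripts, against 55 in leaf, 86 in root and 85 in stem. The nucleosome term was on 42, 51, 46 and 51 transcripts in the seed stages, against 34 in leaf, 77 in root and 41 in stem. Many of these were the histone members already counted, 45 of the 77 in root. Outside the members the term was on 21, 29, 22 and 23 transcripts in the seed stages, while leaf had 17, root 32 and stem 21. These outside shares were 0.0726% (0.0506 to 0.104) at BBCH 07 and 0.0825% (0.0584 to 0.116) in root, with intervals that overlapped.

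**Figure D5:**
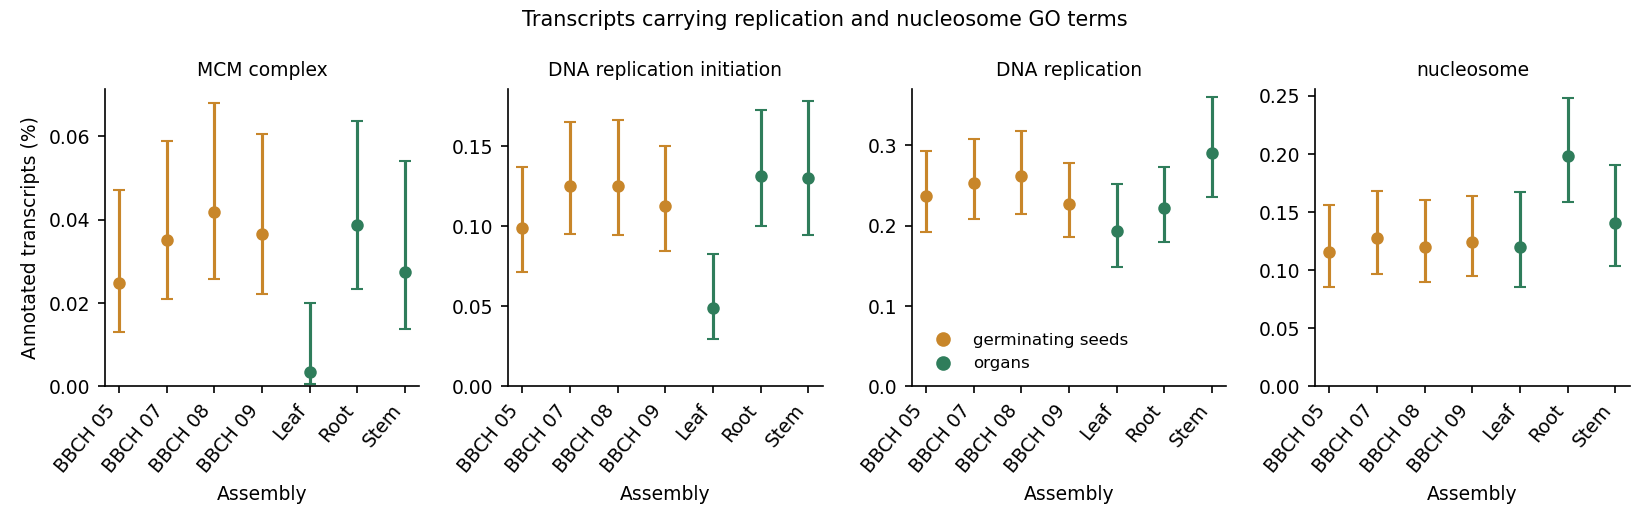
Share of annotated transcripts with 4 GO terms in each assembly, with 95% Wilson intervals and a separate scale per term (1 library per point). The MCM complex and DNA replication initiation are lowest in leaf, at 0.00352% and 0.0493%, and the nucleosome term is highest in root, at 77 transcripts, of which 45 were members.

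Of the 12 terms, none was higher in every seed stage than in every organ (4.33% of the 3050 terms tested were) and 1 was lower (4.92% of all were). That term, mitotic nuclear division, was on 16, 17, 18 and 17 transcripts in the seed stages, against 15 in leaf, 21 in root and 17 in stem, with p = 0.0286 in the exact permutation test and 0.440 after adjustment. An unadjusted p under 0.05 was reached by 198 of the 3050. Leaf had the lowest share of 3 of the 12 (11.4% of all), which were the MCM complex, DNA replication initiation and DNA replication. The cell division term went the other way. Its share was highest in leaf (56 transcripts, 0.197%) and lowest in root (54, 0.139%), with overlapping intervals.

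The proteins matched by members were shared among assemblies about as often as others. Of the 186, 28 (15.1%) were matched in all 7 assemblies, against 15.8% of all 57115 proteins. They included histones H2A and H2B, the unnamed polymerases, replication factor C subunits 3 and 5, topoisomerase 2, cyclin-B2-2 and CDKF-1. Matches in 1 assembly alone made up 39.2% of members' proteins, against 34.6% of all. Seeds alone matched 47 (25.3%) and organs alone 47 (25.3%), against 30.7% and 16.8% of all proteins. Root alone matched 25, of which 15 were histones, and BBCH 07 alone matched 6.

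Member peptides were shorter than the average annotated one in each assembly. Their median length was 182.5, 156, 163.5 and 170 amino acids at BBCH 05, 07, 08 and 09, against 150.5 in leaf, 155.5 in root and 182.5 in stem. For all annotated transcripts it was 200, 175, 183 and 188 in the seed stages, against 194 in leaf, 201 in root and 232 in stem. Enzyme codes were more frequent on members, 23.7% to 33.1%, than on all annotated transcripts, 13.3% to 14.7%. Matches near the limit were few, and between 92.9% and 98.8% of members had an e-value under 1e-10. The weakest match inside the limit was at 0.1, in leaf, and the nearest outside was at 0.11, in root.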

How the data were processed

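RNA of 4 germinating seed stages and 3 organs was analysed, 1 pooled library each. The authors trimmed the reads with Trimmomatic (named in the submitters' processing notes, version not given in the sources used here), normalised them by k-mer, assembled them with Trinity, took only the longest isoform of each gene, joined contigs at 90% identity, translated them, searched UniProtKB plant proteins with blastp and annotated the hits with Blast2GO. The deposited tables hold 1 line per translated transcript. Some genes still have more than 1 line, as with the 156 root members on 145 Trinity genes. The e-value of the best match is a score deposited by the authors, and mean similarity is a percent deposited by the authors. Peptide length and the number of GO terms were used as deposited by the authors. No counts of reads were used. Columns of per-sample values without a sample numbered 0. Each assembly held 32001 to 47423 translated transcripts, and its size limits the precision.

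Here, the best homologue at an e-value of at most 0.1 was taken, names were compared in lower case with fragment marks removed, and proteins were told apart by UniProt accession. Roles, pathway groups, markers and 12 GO terms were lists of words and terms. The members and lists were chosen with earlier results of these data known, and the words that sort members into roles were adjusted after the descriptions were seen. Named were every role and, within roles, descriptions with at least 10 transcripts that were among the 10 most frequent or had one of the 8 highest or 8 lowest seed to organ ratios (0.5 added to counts). A, B and D cyclins, MCM subunits, polymerases, replication factor C, replication protein A and core histones could be named as well. Other single descriptions (CDC5, CDC-numbered subunits, cyclin-T1-4, CDKs of type B, the SET7/9 methyltransferase) and the counts for leaf and root were chosen after their values were seen. Descriptions and GO terms with at least 10 transcripts over the 7 assemblies were compared by an exact two-sided permutation test over 35 divisions with Benjamini-Hochberg adjustment, which was tested on simulated data. Stages and organs are different conditions and not replicates, so p describes the division of these 7 assemblies and not variation between plants. Alternatives are given at the end. Computations ran in Python 3.11.15 with pandas 2.3.3, NumPy 2.4.6 and SciPy 1.17.1, and plots in matplotlib 3.10.9. Sequences and the authors' raw reads were not used here.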

Additional observations from a re-analysis of the deposited data

Results flagged for a closer look

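Within the 4 seed stages and within the 7 assemblies, each share of a role or description was checked for 1 value far from the rest (gap to its nearest neighbour over the whole range, Dixon's 95% limit). The conditions are not replicates of 1 group. For normally distributed values chance gives such a value in about 1 of 20 sets, and the rate for shares of small counts was not tested. In 82 sets 13 such values were found. Several rest on 1 to 3 transcripts, and a role and its main description are not independent.

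Root was high among the 7 assemblies for histone H2A (0.0799%, next 0.0445%) and for histone H4 (0.0232%, next 0.00785%). BBCH 07 was high among the 7 for Nek2 (0.0150%), for the DNA polymerase I description (0.0225%) and for that description with the chloroplast DNA polymerase (0.0250%). Leaf was high among the 7 for replication factor C (0.0246%, next 0.0137%). Within the seed stages, BBCH 05 was high for histone H2B (0.0248%, others 0.0131% to 0.0150%) and for CDC48-E (0.00827%, 3 transcripts against 1 in the other stages). BBCH 07 was high for cyclin4 (0.0100%). BBCH 08 was high for topoisomerases of no named type (0.0235%), also as the single description (0.0235%). BBCH 09 was high for polymerase III gamma/tau (0.00978%) and for CDKF-4 (0.00489%, 2 transcripts against 1). No cause was tested for any of these.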

How the results depend on the processing

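No paired analysis was possible because 1 library per condition was analysed. The seed minus organ difference of the module share stayed within its counting error with e-values capped at 1e-05 or 1e-10, Trinity genes or distinct proteins counted instead of transcripts, and all translated transcripts as the base. It also did so without most name-only matches (F-box, cyclin D-binding and accession matches kept), without green algae and, added after seeing the data, with replication protein A subunits included. It changed sign with peptides of at least 200 amino acids (0.0253) and with residues in place of transcripts (0.0267, added after seeing the data). Leaving out 1 assembly gave -0.0530 (without leaf) to -0.00339 (without root). The BBCH 07 ratio kept within its interval in those of these that were run for it, and was 0.948 to 1.02 when another seed stage was left out. It has no value without BBCH 07. The 2 descriptions with no overlap of seeds and organs became 0 by Trinity gene, 0 by distinct proteins and 0 with peptides of at least 200 amino acids (of 23, 12 and 8 tested), and 1 to 8 with 1 assembly left out, where 18.5% to 27.3% of all descriptions did not overlap. The 4 descriptions highest at BBCH 07 became 0 of 12 by distinct proteins (10.1% of all descriptions), 2 of 8 with the longer peptides (19.3%), 8 of 46 with at least 5 transcripts (12.3%) and 3 of 23 at 1e-10 (13.6%, cyclin-F2-1 lost), and 4 or 5 with 1 assembly left out. For the 24 descriptions, 315 of 336 recomputed seed to organ ratios kept their call and stayed within counting error, 7 lost and 14 gained a non-overlap, and none of the called ones changed direction. Assembly size, 28412 to 40902 annotated transcripts, and single libraries limit every count.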

Other observations

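The homologues of members differed from those of all annotated transcripts in their species. Aegilops tauschii, a goatgrass and wheat ancestor, was the source for 50.9%, 45.1%, 43.4% and 45.1% of members at BBCH 05, 07, 08 and 09, against 39.5% in leaf, 32.7% in root and 40.9% in stem. Over all annotated transcripts it supplied 14.2% to 14.9% in the single assemblies. How often entries of each species carry an informative name was not tested.

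The combined assembly, made from the reads of all libraries together, held 223 members on 127 proteins, fewer than the 186 proteins of the 7 single assemblies. Its members had 1.76 transcripts per protein, above each single assembly, and a median of 141 amino acids, below each of them. MCM4 had 5 transcripts in it, against at most 2 in a single assembly, and DNA polymerase I had 4, of 120, 212, 261 and 434 amino acids, where the 3 organs alone each gave a peptide of 1100.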
